A study of Mus musculus with 9 samples.

Results

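A set of 10 chemokine and cytokine genes was followed in MyC-CaP cells treated with NRG1: Cxcl1, Cxcl2, Cxcl5, Cxcl10, Cxcl16, Cx3cl1, Ccl2, Ccl5, Ccl20 and Csf1. They were taken by symbol from the gene count table, and they were chosen by their fitted changes and levels in the comparisons below, with earlier results of these data in view, so that early and late genes were set side by side on purpose. Of the 10 genes, 9 had a row among the 15552 protein-coding genes of the table and 8 were among the 11373 genes with enough counts to be tested. Expression of Ccl20 was not analysed here, and only its reference promoter and 3′ UTR were searched.

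MyC-CaP is a cell line from a prostate tumor of a mouse that overexpresses MYC, and NRG1 (neuregulin 1) is a ligand of the receptor HER3. All cells, the 0 h group included, were first starved for 6 to 12 h in medium without serum and calcium. The groups then differed in the time with 15 ng/mL recombinant NRG1, which was 0, 12 or 24 h, and each group held 3 libraries labelled as biological replicates. Cells were plated in triplicate wells, and nothing further in the labels says how the replicates were separated, so the error bars and p-values measure the spread between these libraries, which may be partly technical. No library here came from cells held 12 or 24 h without NRG1, and the effect of NRG1 and that of longer time in the starvation medium cannot be told apart. Each library held 28467089 to 39239760 counts, and in this bulk RNA a change in RNA per cell cannot be told apart from a change in the share of cells that express a gene.

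Chemokines are small secreted or membrane-bound proteins that guide leukocytes along a gradient through G protein-coupled receptors. Cxcl1, Cxcl2 and Cxcl5 carry the Glu-Leu-Arg (ELR) motif, act on Cxcr2 and attract neutrophils. Cxcl10 acts on Cxcr3 and draws T cells, Ccl5 draws T cells and monocytes, and Ccl2 acts on Ccr2 of monocytes. Tumor epithelial cells can be a source of such signals, and in many cells their transcription is driven by NF-kB, with interferon regulatory factors acting on Cxcl10 and Ccl5 as well.

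Because upstream and 3′ UTR sequences are where chemokine genes are known to be controlled, these were compared first. RefSeq promoters on GRCm38.p6 (250 bases before the annotated start) were at hand for 6 of the 10 genes, Cxcl1, Cxcl2, Cxcl10, Cx3cl1, Ccl20 and Csf1, while those of Cxcl5, Cxcl16, Ccl2 and Ccl5 were not used here. Cxcl1 and Cxcl2 shared a stretch of 14 bases, GGGAATTTCCCTGG, that began 71 bases before the start of Cxcl1 and 97 bases before that of Cxcl2. The stretch holds a match to the NF-kB (kB) consensus on each strand, the 2 matches overlapping by all but 1 base. The lines below show 4 upstream stretches that hold a kB match, those of Cxcl1, Cxcl2, Cxcl10 and Csf1, and capitals mark matches to the motifs searched. Whether a match bears on the change of a gene was not tested.
Cxcl1, chr5:90891135-90891214, plus strand: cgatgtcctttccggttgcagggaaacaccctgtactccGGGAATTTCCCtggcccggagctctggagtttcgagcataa
Cxcl2, chr5:90903789-90903868, plus strand: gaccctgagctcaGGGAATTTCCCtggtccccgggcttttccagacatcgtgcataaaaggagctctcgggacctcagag
Cxcl10, chr5:92348949-92349109, minus strand: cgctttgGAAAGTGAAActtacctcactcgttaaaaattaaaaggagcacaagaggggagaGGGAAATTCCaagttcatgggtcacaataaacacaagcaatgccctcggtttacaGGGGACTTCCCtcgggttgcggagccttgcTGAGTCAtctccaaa
Csf1, chr3:107760604-107760634, minus strand: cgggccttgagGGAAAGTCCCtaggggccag

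A kB consensus match on either strand was found in 5 of the 6 promoters, all but that of Cx3cl1, against 7.25% of all 32841 RefSeq promoters of the same length. Cxcl10 had in addition GAAAGTGAAA, a match to the interferon-response pattern of GAAA, any 2 bases and again GAAA, that 2.98% of promoters hold, 213 bases before its start. It also had TGAGTCA, a match to the AP-1 pattern TGANTCA found in 6.75% of promoters, 74 bases before its start. In Cx3cl1 the only match among these patterns was TATAAA, which 12.4% of promoters hold. Cxcl3, which lies in the same cluster and has at most 3 counts in any library, also had the kB match GGGAATTTCC, 73 bases before its start. A match is a description of the letters and not evidence of binding.

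In the 3′ UTR the genes differed in the pentamer ATTTA, the core of the AU-rich elements through which many cytokine mRNAs are known to be degraded. GENCODE vM21 transcripts on GRCm38 were searched on the sense strand, overlapping matches included. Cxcl1 had 7 copies in 592 nt and Cxcl2 had 11 in 734 nt. The first 592 nt or 734 nt of the tested genes with 3′ UTRs at least as long were searched too. As many were found in 17 of 7398 (0.23%) and 1 of 6727 (0.0149%) genes. These numbers include the gene itself, so the 1 gene counted for Cxcl2 was Cxcl2. Ccl5 had 0 copies in its 199 nt. How many other genes have 0 copies in so short a stretch was not counted, so this absence was not set against a general share. Cxcl5 had 5 copies in 1111 nt, which 9.31% of genes matched, and Ccl20 had 5 in 450 nt (0.512%). The remaining 5 genes had 1 to 4 copies, numbers that 29.5% to 88.6% of genes reached. The 30-base windows with the most copies in Cxcl1 and Cxcl2 are given below, with ATTTA in capitals.
Cxcl1 3′ UTR, chr5:90892602-90892631, plus strand: gagggtcctATTTATTTAtgtATTTATTTA
Cxcl2 3′ UTR, chr5:90905327-90905356, plus strand: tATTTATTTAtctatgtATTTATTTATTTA

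Cxcl1, Cxcl2 and Cxcl5 were higher at 12 h and at 24 h than at 0 h, with their highest means at 12 h (for Cxcl5 only while replicate 3 at 12 h was included). Ccl5 did not pass at 12 h and was higher at 24 h than at both earlier times, and Csf1 was higher at 24 h than at 12 h. Values are CPM, counts scaled to a common library size after TMM, with the SD over 3 libraries. A gene passed when its edgeR adjusted p was at most 0.05 and was called when it also changed at least 1.5-fold, a log2 fold change of 0.585. Both comparisons against 0 h share the 0 h libraries, and the comparison of 24 h with 12 h shares its libraries with them. Since the genes were chosen with these comparisons known, their fold changes are given as a description and without p-values. Of the 8 tested genes 3 passed at 12 h, 4 at 24 h and 3 between 12 and 24 h, against 25.5%, 17.4% and 5.03% of all genes. At 12 h against 0 h 3 were called higher, against 1.34% of all genes, at 24 h against 0 h 4 (1.68%), and at 24 h against 12 h 1 (0.202%). All later libraries were above all earlier ones for 3 genes at 12 h (19.9% of all genes), for 5 at 24 h (17.6%) and for 2 between 12 and 24 h (11.4%), and below them for 1 between 12 and 24 h (13.6%). The median log2 fold change of the 8 genes was 0.40 at 12 h, 0.67 at 24 h and −0.14 between them, and that of all tested genes lay between −0.0065 and 0.0023.

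**Figure D1:**
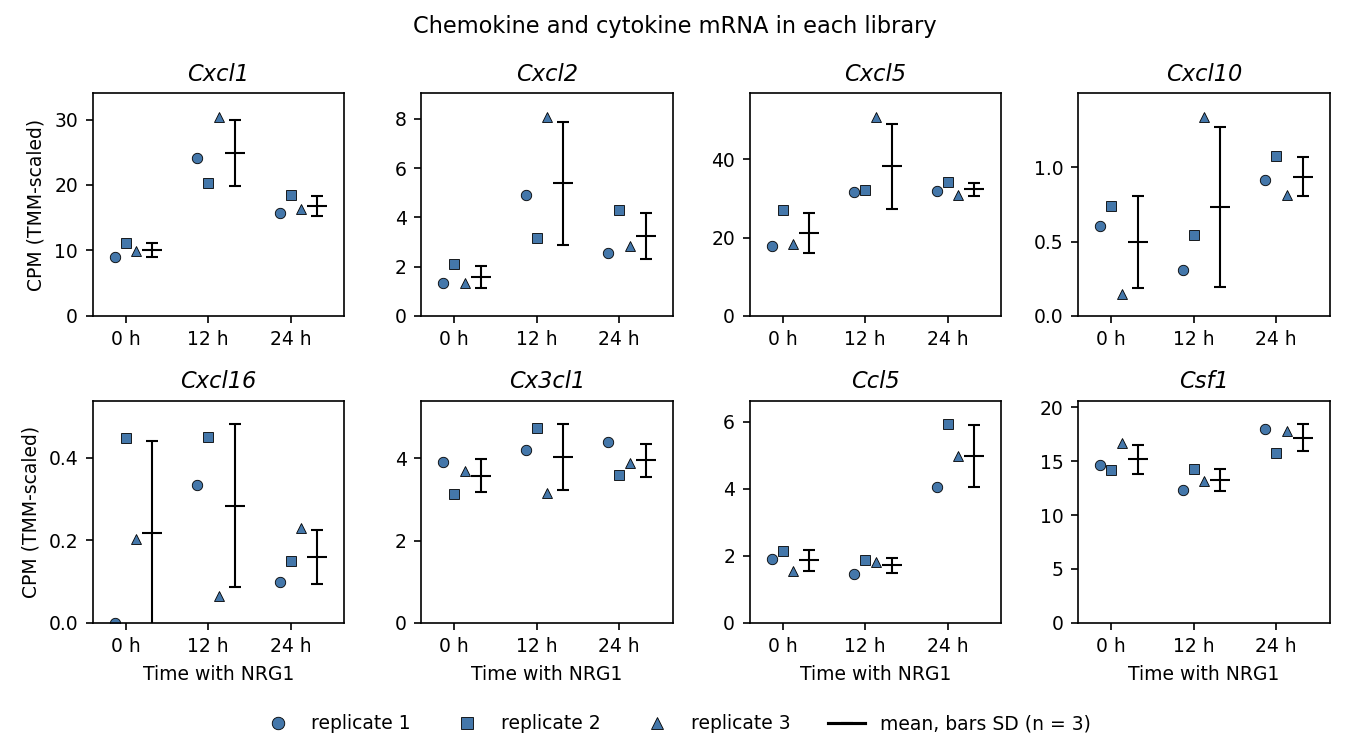
CPM of the 8 tested genes in each library (y axis, starting at 0 and scaled per gene) at 0, 12 and 24 h with NRG1 (x axis). Symbols mark the replicates and black bars the mean ± SD of 3 libraries. Cxcl1, Cxcl2 and Cxcl5 were above every 0 h library at both later times, Ccl5 was so at 24 h alone, and replicate 3 was the highest 12 h library for Cxcl1, Cxcl2, Cxcl5 and Cxcl10.

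Cxcl1 (ENSMUSG00000029380.11, chromosome 5, 90891241 to 90893115, GRCm38) encodes KC, a main neutrophil attractant of the mouse. It had 253, 423 and 340 counts at 0 h, 862, 630 and 930 at 12 h, and 478, 619 and 638 at 24 h. In CPM these were 8.98, 11.1 and 9.87 at 0 h, 24.1, 20.3 and 30.3 at 12 h, and 15.7, 18.5 and 16.3 at 24 h. No range overlapped another, with 12 h highest and 24 h between. The means were 9.99 ± 1.08, 24.9 ± 5.09 and 16.8 ± 1.51 CPM (n = 3, SD). The log2 fold change was 1.31 ± 0.12 (SE) at 12 h, or 2.48-fold, and 0.74 ± 0.13 at 24 h, or 1.67-fold. Both were called in all 9 leave-one-out fits, each without 1 library. From 12 to 24 h it fell by 0.57 ± 0.12 on the log2 scale, which passed the threshold but was short of 1.5-fold. That fall did not pass without replicate 1 or replicate 3 at 24 h. Without replicate 3 at 12 h its size was −0.41, and without replicate 2 at 12 h −0.69. The fall was called in 3 of the 9 fits, those lacking 12 h replicate 1, 12 h replicate 2 and 24 h replicate 2.

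Cxcl2 (ENSMUSG00000058427.10, chromosome 5, 90903871 to 90905938) encodes MIP-2, a further Cxcr2 ligand and a close paralog of Cxcl1, so reads shared by the pair may be split or lost in counting. It had 37, 80 and 46 counts at 0 h, 176, 98 and 247 at 12 h, and 78, 144 and 111 at 24 h. The means were 1.58 ± 0.450, 5.38 ± 2.49 and 3.23 ± 0.943 CPM (n = 3, SD). Every library at 12 and 24 h was above every library at 0 h, and the 12 and 24 h ranges overlapped. The log2 fold change was 1.73 ± 0.30 (SE) at 12 h, or 3.32-fold, and 1.00 ± 0.32 at 24 h, or 2.00-fold. The 12 h change was called in all 9 leave-one-out fits, from 1.35 without replicate 3 at 12 h to 2.02 without replicate 2 at 0 h. The 24 h call was lost in 4 of these 9 fits (those lacking 0 h replicate 1, 0 h replicate 3, 24 h replicate 2 and 24 h replicate 3), and with DESeq2. Between 12 and 24 h the log2 fold change was −0.73 ± 0.27 and did not pass, except without replicate 2 at 12 h, where it was −0.99 and called.

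Cxcl5 (ENSMUSG00000029371.7, chromosome 5, 90759360 to 90761624) encodes LIX, an ELR+ chemokine that epithelial cells are known to make. Its counts were 506, 1026 and 629 at 0 h, 1136, 998 and 1556 at 12 h, and 974, 1140 and 1215 at 24 h. In CPM the libraries were at 18.0, 27.0 and 18.3, then 31.7, 32.1 and 50.8, then 31.9, 34.1 and 30.9. The later libraries were all above the 0 h libraries, and replicate 3 at 12 h stood well above the other two. The means were 21.1 ± 5.13, 38.2 ± 10.9 and 32.3 ± 1.61 CPM (n = 3, SD). The log2 fold change was 0.84 ± 0.16 (SE) at 12 h, or 1.79-fold, and 0.61 ± 0.16 at 24 h, or 1.52-fold. Without replicate 3 at 12 h the first was 0.60 and still called. The second lost its call in the fits lacking 0 h replicate 1, 0 h replicate 3 and 24 h replicate 2, and with DESeq2. Between 12 and 24 h the log2 fold change was −0.24 ± 0.15, which did not pass, and it was 0.012 without replicate 3 at 12 h.

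Part of the 12 h rise of Cxcl1, Cxcl2 and Cxcl5 was still present at 24 h. Taken on mean CPM above the 0 h mean, the 24 h level was 45.7% of that at 12 h for Cxcl1, 43.4% for Cxcl2 and 65.6% for Cxcl5, and the differences between these shares were not tested. Without replicate 3 at 12 h the shares were 56.0%, 67.2% and 104%, so that for Cxcl5 the 12 and 24 h means were level at 31.9 and 32.3 CPM. Leaving out any other library gave 39.6% to 49.6% for Cxcl1, 29.2% to 52.3% for Cxcl2 and 55.2% to 70.7% for Cxcl5. The difference between 12 and 24 h passed for Cxcl1 and not for Cxcl2 or Cxcl5. Over the 9 libraries the log2 CPM of Cxcl1 and Cxcl2 correlated with r = 0.97, of Cxcl2 and Cxcl5 with 0.94 and of Cxcl1 and Cxcl5 with 0.92, a description in which every gene shares the same libraries and the same 3 time points. Cxcl2 counts per 100 Cxcl1 counts were 14.6, 18.9 and 13.5 at 0 h, 20.4, 15.6 and 26.6 at 12 h, and 16.3, 23.3 and 17.4 at 24 h. These ranges overlapped, so the ratio of the pair did not separate the time points. Cxcl5 counts per 100 Cxcl1 counts were 185 to 243 at 0 h, 132 to 167 at 12 h and 184 to 204 at 24 h, lower in every 12 h library than in any other.

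The spread between replicates was itself uneven. Set against counting noise, the chi-square per degree of freedom among 12 h libraries was 32.2 for Cxcl1, 35.7 for Cxcl2, 98.9 for Cxcl5 and 13.2 for Cxcl10. Without replicate 3 at 12 h the values were 10.9, 12.6, 0.0692 and 2.28. The 0 h libraries were uneven too, with 43.3 for Cxcl5, where replicate 2 was high, 6.80 for Cxcl10, 3.82 for Cxcl1 and 4.43 for Cxcl2. For Ccl5 it was 1.04 at 12 h and 5.53 at 24 h, and for Csf1 it was between 2.50 and 4.03 at all times. Over all genes, replicate 3 at 12 h was also the library least like its group, with chi-square values per degree of freedom of 10.2 and 10.3 against the other two, where every other pair of replicates was lower. Whether the high Cxcl1, Cxcl2 and Cxcl5 values of that library belong to the 12 h state was not tested.

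Cxcl10 (ENSMUSG00000034855.13, chromosome 5, 92346638 to 92348889) encodes IP-10, an interferon-inducible ligand of Cxcr3. It was close to the lower limit of measurement, with 17, 28 and 5 counts at 0 h, 11, 17 and 41 at 12 h, and 28, 36 and 32 at 24 h. The means were 0.495 ± 0.310, 0.731 ± 0.539 and 0.936 ± 0.132 CPM (n = 3, SD). All 24 h libraries were above all 0 h libraries, and the 12 h libraries overlapped both. The log2 fold changes of 0.52 ± 0.51 (SE) at 12 h and 0.91 ± 0.48 at 24 h did not pass, and a 12 h value of −0.23 was obtained without replicate 3 at 12 h. An overlap of 5.91% of its exonic bases with Art3 on the opposite strand leaves a few of its counts uncertain, since strand use in counting was not stated.

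The transmembrane chemokines Cx3cl1 and Cxcl16 did not pass by edgeR in any of the comparisons. Cx3cl1 (ENSMUSG00000031778.13, chromosome 8, 94772009 to 94782427) encodes fractalkine, which holds leukocytes bearing Cx3cr1 at the cell surface until it is shed. It had 110, 119 and 127 counts at 0 h, 150, 147 and 97 at 12 h, and 134, 120 and 152 at 24 h. The means were 3.57 ± 0.399, 4.03 ± 0.794 and 3.95 ± 0.405 CPM (n = 3, SD), and the ranges overlapped at every time. Its log2 fold changes of 0.18 ± 0.16 (SE), 0.15 ± 0.16 and −0.034 ± 0.15 did not pass. Cxcl16 (ENSMUSG00000018920.11, chromosome 11, 70453983 to 70459984), the ligand of Cxcr6, had 0, 17 and 7 counts at 0 h, 12, 14 and 2 at 12 h, and 3, 5 and 9 at 24 h. It passed the count filter but was too low to measure a change, with log2 fold changes between −0.79 and 0.28 and standard errors from 0.70 to 0.77. Zmynd15 on the opposite strand overlaps 18.3% of the exonic bases of Cxcl16, a further doubt on these few counts.

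Among the CC chemokines, Ccl5 (ENSMUSG00000035042.2, chromosome 11, 83525778 to 83530518) encodes RANTES. It had 54, 82 and 53 counts at 0 h, 52, 58 and 56 at 12 h, and 124, 198 and 195 at 24 h. In CPM the libraries were at 1.92, 2.16 and 1.54, then 1.45, 1.87 and 1.83, then 4.06, 5.92 and 4.97. The 0 and 12 h libraries overlapped, and every 24 h library was above all of them. The means were 1.87 ± 0.311, 1.71 ± 0.228 and 4.98 ± 0.931 CPM (n = 3, SD). The log2 fold change was −0.14 ± 0.21 (SE) at 12 h, which did not pass, 1.41 ± 0.18 at 24 h against 0 h, or 2.66-fold, and 1.55 ± 0.18 at 24 h against 12 h, or 2.92-fold. The last 2 were called in all 9 leave-one-out fits, with values of 1.28 to 1.54 and 1.41 to 1.67. Replicate 3 at 12 h, the highest library for Cxcl1, Cxcl2 and Cxcl5, was no higher in Ccl5 than replicate 2.

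Ccl2, which encodes the monocyte attractant MCP-1 (ENSMUSG00000035385.5, chromosome 11, 82035571 to 82037453), had 2, 4 and 3 counts at 0 h, 4, 0 and 1 at 12 h, and 0, 0 and 2 at 24 h. Its 16 counts in all 9 libraries were below the filter, and the limit that a count of 0 allows (3 counts) was 0.0764 to 0.106 CPM per library, so no change was measurable at this depth. Ccl2 and Cxcl16 were therefore too low to measure here, and Cxcl10 was close to that limit. Such limits cover counting error only.

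Csf1 (ENSMUSG00000014599.10, chromosome 3, 107741048 to 107760469) encodes the macrophage growth factor M-CSF, the only cytokine of the set that is not a chemokine. It had 412, 541 and 575 counts at 0 h, 441, 445 and 404 at 12 h, and 550, 528 and 699 at 24 h. The means were 15.2 ± 1.33, 13.3 ± 0.999 and 17.2 ± 1.23 CPM (n = 3, SD). The 0 h libraries overlapped both later groups, and every 24 h library was above every 12 h library. The log2 fold change was −0.20 ± 0.086 (SE) at 12 h and 0.18 ± 0.083 at 24 h, neither of which passed. Between 12 and 24 h it was 0.38 ± 0.085, which passed and was short of 1.5-fold, and which did not pass in 3 of the 9 leave-one-out fits (those lacking 12 h replicate 1, 24 h replicate 1 and 24 h replicate 3).

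**Figure D2:**
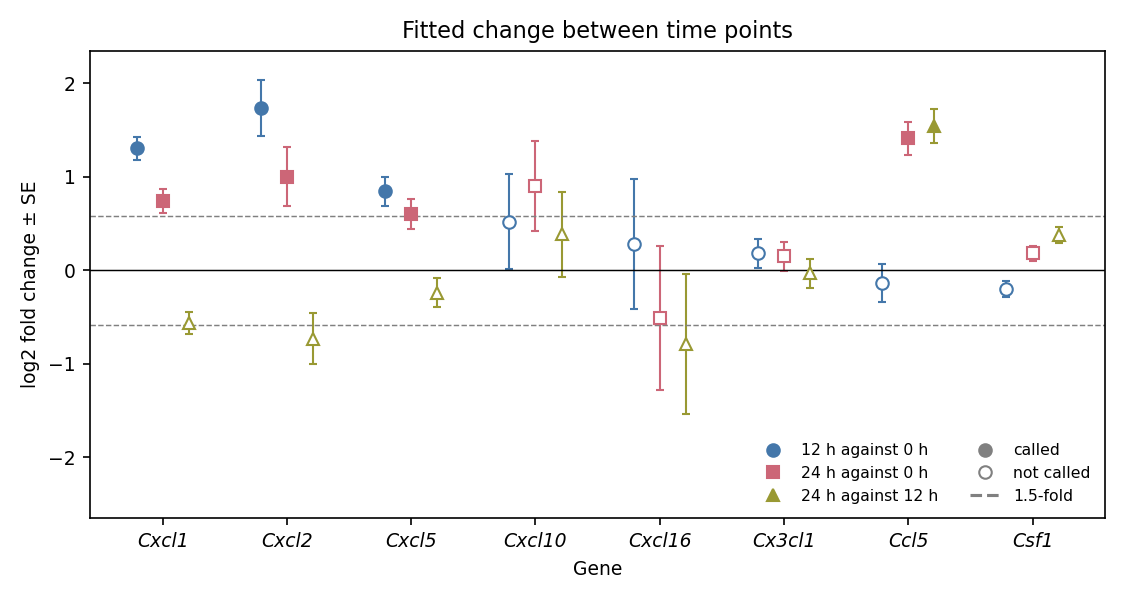
Log2 fold change ± SE (y axis) of the 8 tested genes (x axis) for 12 h against 0 h, 24 h against 0 h and 24 h against 12 h, from 3 libraries per time. Filled symbols were called and dashed lines mark 1.5-fold. The largest 12 h value was 1.73 for Cxcl2, and Ccl5 alone was called at 24 h against 12 h.

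Early and late genes were also set against each other inside each library, where scaling between libraries has no effect. As Cxcl1 and Ccl5 were chosen as an early and a late gene from these values, their ratio describes the same courses again and tests nothing. Ccl5 counts per 100 Cxcl1 counts were 21.3, 19.4 and 15.6 at 0 h, 6.03, 9.21 and 6.02 at 12 h, and 25.9, 32.0 and 30.6 at 24 h. The 3 time points did not overlap, lowest at 12 h and highest at 24 h. Across the 9 libraries the log2 CPM of Ccl5 correlated weakly with that of Cxcl1 (r = 0.044) and Cxcl2 (r = 0.10), and more closely with Cxcl10 (r = 0.59) and Csf1 (r = 0.67). These r describe 9 libraries at 3 shared time points and carry no test.

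**Figure D3:**
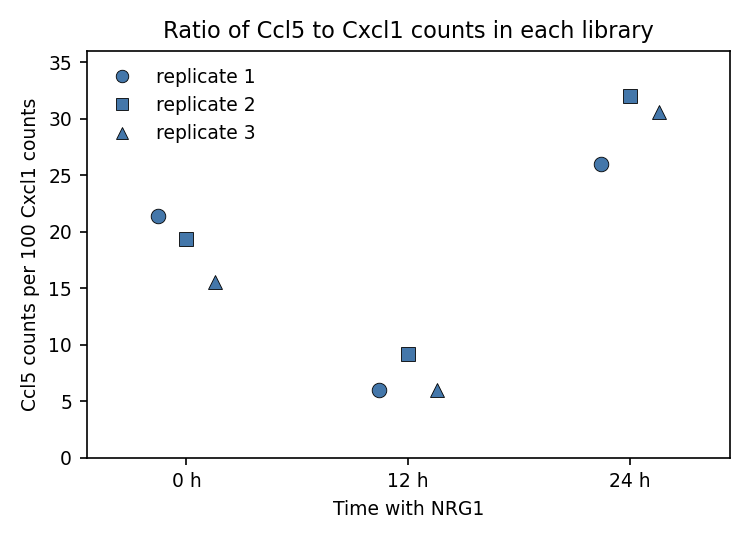
Ccl5 counts per 100 Cxcl1 counts (y axis, starting at 0) in each of the 9 libraries at 0, 12 and 24 h with NRG1 (x axis), with 1 symbol per replicate number. Values run from 6.02 to 9.21 at 12 h, from 15.6 to 21.3 at 0 h, and from 25.9 to 32.0 at 24 h.

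Genes were ranked per kb of exon, with the exons of all annotated transcripts of a gene joined. For Cxcl1, Cxcl2 and Cxcl10 the joined exons formed 1 block over the whole gene, of 1875, 2068 and 2252 bases. Their values per kb may therefore be too low against the other genes, and the ranks hold for this length only. By this measure Cxcl5 was highest at each time with 11.3, 20.5 and 17.3 CPM per kb. Cxcl1 followed with 5.33, 13.3 and 8.96. Csf1 came next at 0 h with 2.88 CPM per kb, ahead of Ccl5 with 1.95, Cx3cl1 with 0.909 and Cxcl2 with 0.766. The libraries of Cx3cl1 and Cxcl2 overlapped at 0 h. At 12 h Cxcl2 with 2.60 CPM per kb overlapped both Csf1 with 2.51 and Ccl5 with 1.79. At 24 h Ccl5 reached 5.19, above Csf1 with 3.26 and Cxcl2 with 1.56. Cxcl10 stayed between 0.220 and 0.416 CPM per kb, and Cxcl16 and Ccl2 under 0.1.

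The genes whose log2 CPM followed that of Cxcl1 most closely over the 9 libraries, among 10250 genes with a mean of at least 1 CPM, were Ywhag (r = 0.989), Nars (0.989), Eif2s2 (0.988), Hspa9 (0.987) and Mpp5 (0.983). Their amplitude was much smaller: Ywhag, a 14-3-3 protein gene, was at 458, 538 and 504 CPM at 0, 12 and 24 h. Closest to Ccl5 were Prkce (r = 0.976), Maf (0.961), Chka (0.954), Sqor (0.946) and Ctc1 (0.933). Maf, a transcription factor gene, was at 119, 122 and 164 CPM. The r rank likeness over these libraries only.

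Cxcl1, Cxcl2 and Cxcl5 lie in 1 cluster of CXC chemokine genes on chromosome 5, so its other members were examined. Ppbp, which encodes another Cxcr2 ligand, lies 123 kb before the start of Cxcl1. Its mean went from 3.31 ± 0.460 CPM to 5.79 ± 0.272 at 12 h and 6.09 ± 0.532 at 24 h (n = 3, SD), with log2 fold changes of 0.80 (adjusted p = 0.000222 by edgeR) and 0.87 (adjusted p = 0.000115). Between 12 and 24 h Ppbp gave a log2 fold change of 0.070 (adjusted p = 0.80 by edgeR). Cxcl15, called lungkine, was at 145 ± 4.67, 163 ± 9.20 and 179 ± 4.71 CPM, and it rose by 0.17 at 12 h (adjusted p = 0.00970 by edgeR) and 0.30 at 24 h (adjusted p = 0.000106) on the log2 scale. Pf4, which encodes platelet factor 4, gave 0.52 at 12 h (adjusted p = 0.0841 by edgeR) and 0.098 at 24 h (adjusted p = 0.816), and Cxcl3 had at most 3 counts in a library. The neighbor Mthfd2l, which is no chemokine gene and starts 39.9 kb after Cxcl1, gave −0.067 (adjusted p = 0.462 by edgeR) and −0.097. Near Ccl5, Ccl9 starts 47.1 kb away and gave 0.83 at 12 h (adjusted p = 0.0957 by edgeR) and 0.70 at 24 h (adjusted p = 0.197), and Ccl4 had at most 3 counts in a library.

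**Figure D4:**
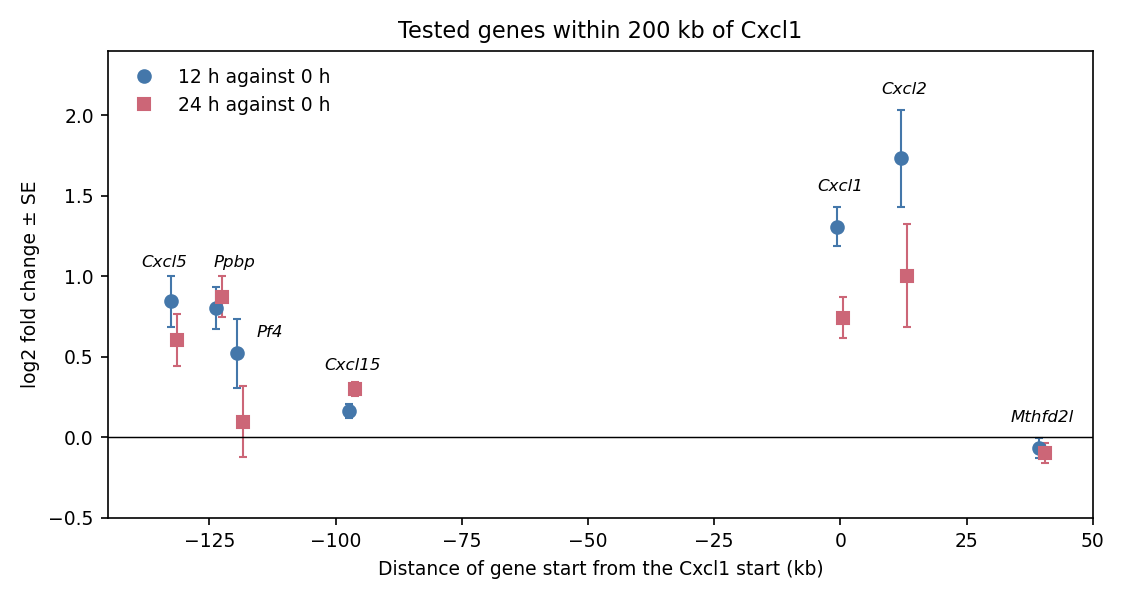
Log2 fold change ± SE (y axis) at 12 h and at 24 h against 0 h, from 3 libraries per time, for the 7 tested genes that start within 200 kb of Cxcl1, placed by the distance of their starts from that of Cxcl1 in kb (x axis). Cxcl1, Cxcl2, Cxcl5 and Pf4 had larger fitted values at 12 h than at 24 h, Ppbp and Cxcl15 did not, and Mthfd2l lay near 0.

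Beyond the set, 29 other chemokine ligand genes were listed, of which 13 were in the table and 9 were tested. Those that passed were the same 3 at both later times: Ppbp and Cxcl15 higher and Cxcl17 lower. Cxcl17, which encodes a mucosal chemokine, went from 22.4 ± 4.13 CPM to 13.4 ± 2.74 at 12 h and 13.6 ± 1.66 at 24 h (n = 3, SD). Its log2 fold change was −0.73 at 12 h (adjusted p = 0.000842 by edgeR) and −0.72 at 24 h (adjusted p = 0.00128).

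Of 34 other cytokine genes, 26 were in the table and 16 were tested. At 12 h 2 were higher and 4 lower, at 24 h 3 were lower, and between 12 and 24 h 1 was higher, where 25.5%, 17.4% and 5.03% of all genes passed. Lif, a cytokine of the interleukin-6 family, rose from 16.5 ± 1.95 to 25.6 ± 5.44 CPM at 12 h (n = 3, SD; log2 fold change 0.64, adjusted p = 0.00107 by edgeR) and was 20.1 ± 2.01 CPM at 24 h. The 12 h rise of Lif passed in all 9 leave-one-out fits and was called in 7. It was smallest, at 0.46, without replicate 3 at 12 h, the highest library with 31.9 CPM, and was not called there. Tnfsf10, which encodes the death ligand TRAIL, fell from 4.50 ± 0.677 to 2.39 ± 0.344 and 2.73 ± 0.197 CPM, log2 fold changes of −0.91 (adjusted p = 0.000503 by edgeR) and −0.72 (adjusted p = 0.00345). Tgfb3 fell by 0.31 at 12 h (adjusted p = 0.000272 by edgeR) and 0.44 at 24 h (adjusted p = 1.18e-05), and Tgfb2 fell by 0.30 (adjusted p = 0.00366) and 0.34 (adjusted p = 0.00173). Kitl, which encodes stem cell factor, rose by 0.27 between 12 and 24 h (adjusted p = 0.000402 by edgeR). Named to complete the counts after their values were seen, Mif was the other gene higher at 12 h and Kitl the fourth lower one. The classic inflammatory cytokines were at or near 0: over the 9 libraries together Il6 had 1 count, Il1a 1, Tnf 3, Csf2 3 and Csf3 22.

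The receptors that would read these signals were not measurable in the cells themselves. Of 11 receptor genes, 5 were in the table and all 5 were below the filter, with Cxcr1 at 3 counts over all 9 libraries, Cxcr2 at 3, Cxcr6 at 4, Cx3cr1 at 17 and Csf1r at 8. Of the 5 decoy receptor genes, Ackr3, which encodes a scavenger of Cxcl12, was the only one tested and stood at 108 ± 14.3, 119 ± 6.11 and 104 ± 4.24 CPM (n = 3, SD). It did not pass at 12 h (0.14, adjusted p = 0.151 by edgeR) or 24 h (−0.048, adjusted p = 0.694). Adam10 and Adam17 encode the sheddases that release Cx3cl1 and Cxcl16 from the membrane. Adam10 was at 302 ± 8.33, 291 ± 9.11 and 268 ± 4.66 CPM and fell by 0.18 at 24 h (adjusted p = 0.00277 by edgeR), and Adam17 was at 122 ± 2.78, 132 ± 2.99 and 119 ± 1.16 CPM and rose by 0.11 at 12 h (adjusted p = 0.0289). The rise of Adam17 did not pass in 3 of the 9 leave-one-out fits (those lacking 0 h replicate 1, 12 h replicate 2 and 12 h replicate 3). From 12 to 24 h Adam17 changed by −0.14 (adjusted p = 0.0314 by edgeR), which passed in 4 of the 9 fits. At 24 h against 0 h it gave −0.029 (adjusted p = 0.646 by edgeR).

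Of the 13 tested NF-kB subunit and feedback genes, 1 was higher and 1 lower at 12 h, 1 was higher at 24 h, and 1 was higher and 2 lower at 24 h against 12 h, all by less than 1.5-fold. Over all genes tested 25.5%, 17.4% and 5.03% passed in these comparisons. The counts of 2 and 1 of 13 against 0 h were not above the general share, while that at 24 h against 12 h was above it. The activity of NF-kB was not measured. Bcl3, a nuclear NF-kB cofactor, rose by 0.32 at 12 h (adjusted p = 0.000773 by edgeR) and fell by 0.21 from 12 to 24 h (adjusted p = 0.0455). Nfkbiz, another such cofactor, fell by 0.32 from 12 to 24 h (adjusted p = 0.0128 by edgeR). Tnip1, an inhibitor of the pathway, changed by −0.23 at 12 h (adjusted p = 0.00414 by edgeR) and by 0.20 from 12 to 24 h (adjusted p = 0.0417), and Nfkb2 rose by 0.18 at 24 h (adjusted p = 0.0471). These later changes lay near the threshold. In the 9 leave-one-out fits, the fall of Bcl3 from 12 to 24 h passed in 2, with values from −0.24 to −0.17, and that of Nfkbiz in 6, from −0.39 to −0.24. The rise of Tnip1 from 12 to 24 h passed in 3, from 0.17 to 0.22, and that of Nfkb2 at 24 h against 0 h in 3, from 0.14 to 0.21.

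Interferon-stimulated genes and their regulators, of which 12 were tested, moved in both directions: 6 were lower at 12 h, 4 were higher at 24 h, and 6 were higher at 24 h than at 12 h, where 25.5%, 17.4% and 5.03% of all genes passed in either direction. Irf7, a factor that acts on interferon genes, gave −0.72 at 12 h (adjusted p = 0.0286 by edgeR) and 0.85 at 24 h (adjusted p = 0.00523), and 1.57 between them (adjusted p = 0.000402). Oasl2 gave −0.62 (adjusted p = 0.00810 by edgeR), 0.49 (adjusted p = 0.0225) and 1.11 (adjusted p = 0.000441). The RIG-I gene Ddx58 gave −0.46 (adjusted p = 0.000236 by edgeR), 0.23 (adjusted p = 0.0292) and 0.69 (adjusted p = 0.000151). Irf9 fell by 0.48 at 12 h (adjusted p = 0.00122 by edgeR), Isg15 rose by 0.39 at 24 h (adjusted p = 0.0116), and Ifit1 rose by 0.67 from 12 to 24 h (adjusted p = 0.00459). In the 9 leave-one-out fits the 12 h fall of Irf7 did not pass in 3 (those lacking 0 h replicate 3, 12 h replicate 1 and 12 h replicate 2). The 24 h rises against 0 h, each under 1.5-fold, did not pass in 2 for Isg15 (0 h replicate 1 and 24 h replicate 3), 2 for Oasl2 (0 h replicate 3 and 24 h replicate 2) and 4 for Ddx58 (0 h replicates 2 and 3 and 24 h replicates 2 and 3). Ccl5, also known as an interferon-responsive gene, had its 24 h values given above beside a 12 h value of −0.14 that did not pass. Cxcl10, the interferon-inducible gene described above, did not pass at 12 h or at 24 h with the filter on low counts. Whether interferon signaling bears on either gene was not tested.

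Genes for factors of chemokine mRNA decay and stability were listed as well. Of 7 tested, 3 were higher at 12 h and 1 at 24 h, where 25.5% and 17.4% of all genes passed. Zfp36l2, which promotes decay of its targets, rose from 309 ± 12.7 to 371 ± 18.9 and 385 ± 2.44 CPM (n = 3, SD), by 0.26 at 12 h (adjusted p = 0.000187 by edgeR) and 0.32 at 24 h (adjusted p = 3.87e-05) on the log2 scale. Zc3h12a, which encodes the RNase regnase-1, rose by 0.34 at 12 h (adjusted p = 0.0487 by edgeR), a result that held in 1 of the 9 leave-one-out fits. Hnrnpd rose by 0.15 at 12 h (adjusted p = 0.0251 by edgeR), which held in 5 of the 9.

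The labels call the line epithelial-like. Hoxb13, a prostate transcription factor, and Krt8, a luminal keratin, were detected, but Epcam had 3 counts and Cdh1 14 over all 9 libraries. Of 10 leukocyte markers 8 were in the table, 7 of them with fewer than 10 counts in every library, and their summed level was 0.390 to 0.868 CPM at 0 h, 0.772 to 0.914 at 12 h and 0.535 to 1.14 at 24 h. The pan-leukocyte marker Ptprc had 20 counts over all libraries, and Cd68, the only marker of this list that was tested, was at 0.510, 0.787 and 0.709 CPM at 0, 12 and 24 h. The part of such cells in the Ccl5 values was not tested. The 4 endothelial markers summed to at most 0.359 CPM. The 6 fibroblast markers in the table summed to 15.3 to 18.0 CPM in all groups, nearly all from Pdgfra.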

How the data were processed

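The authors trimmed reads with Cutadapt, aligned them to GRCm38.p6 with STAR and a GENCODE annotation, and counted them per gene with featureCounts. Their strand and multimapping settings are not given in the sources used here. The deposited values are raw counts of 150 bp paired-end mRNA reads for 15552 protein-coding genes in 9 libraries, with no normalization. Columns were matched to samples by title, and groups followed the labelled time.

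Low counts were removed by filterByExpr (11373 genes left), and the rest were scaled by TMM and fitted over all 9 libraries without covariates by the quasi-likelihood test of edgeR 4.0.16 in R 4.3.3, with Benjamini-Hochberg adjustment over all genes tested. SE is the log2 fold change divided by the square root of its F. DESeq2 1.42.0 was an alternative. Log2 CPM used a prior count of 2. The other alternatives were RLE factors, total counts, no filter, a replicate block and leaving out each library. Library sizes of 28467089 to 39239760 counts put 1 count at 0.0255 to 0.0355 CPM.

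The 10 genes and all gene lists were chosen with earlier results of these data known. Named were the 10 genes, their receptors, Adam10 and Adam17 whatever their values, and up to 4 passing genes with the largest change per list and comparison. Pf4, Ccl9, Ccl4, Cxcl3 and Mthfd2l were added as neighbors. The 5 genes most like Cxcl1 and Ccl5 were ranked by Pearson r. Exon lengths, overlaps and 3′ UTRs came from GENCODE vM21 and promoters from RefSeq, both on GRCm38. The strand of a promoter match was not limited.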

Additional observations from a re-analysis of the deposited data

How the results depend on the processing

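At 12 h against 0 h the same number of genes, 3, was called under every alternative run. At 24 h against 0 h the number passing, and the number called, went from 4 to 2 with DESeq2 and lay between 2 and 4 when 1 library was left out. Between 12 and 24 h the number passing went from 3 to 5 without the filter on low counts and lay between 1 and 4 with 1 library left out, and the number called went from 1 to 2 without the filter and lay between 1 and 3. Without the filter, Cxcl10 passed at 24 h, and Cxcl2 and Cxcl5 passed between 12 and 24 h, where the standard error of Cxcl2 went from 0.27 to 0.15 on the log2 scale. The cause of these moves was not tested. Of 334 fold changes of the 8 genes recomputed, 308 kept direction and side of the threshold, 14 lost and 4 gained the threshold, and 8 changed sign, none of which passed. With 1 library left out, the log2 fold change of Cxcl10 ranged from −0.23 to 1.00 at 12 h and from −0.012 to 1.14 between 12 and 24 h, that of Cxcl16 from −0.20 to 1.34 at 12 h and from −0.99 to 0.55 at 24 h, that of Cxcl5 from −0.36 to 0.012 and that of Cx3cl1 from −0.18 to 0.095 between 12 and 24 h. Ackr3 ranged from −0.12 to 0.057 at 24 h and Ccl9 from −0.33 to 0.11 between 12 and 24 h. Replicate numbers are shared between groups, but same-numbered libraries did not deviate together (r from −0.074 to 0.13, over 0.1 in 1 of 9 pairs), and a replicate block left the counts at 3, 4 and 3 passed and 3, 4 and 1 called. Depth limits Ccl2, with 16 counts over all libraries, and Cxcl10 and Cxcl16 had few counts as well as a spread above counting noise at 0 and 12 h (chi-square per degree of freedom 6.80 and 13.2 for Cxcl10, 6.92 and 4.21 for Cxcl16).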
